A study of Rattus norvegicus with 8 samples.

Results

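The 8 genes described here encode liver enzymes that conjugate drugs, steroids and hormones: the UDP-glucuronosyltransferase genes Ugt1a6 and Ugt2b and the sulfotransferase genes Sult1a1, Sult1b1, Sult1c3, Sult2a1, Sult2a6 and Sult1e1. They were chosen by name, and each was read on the array probes whose RefSeq accession matched it, the brightest in the liver channel standing for the gene. That gave values for 7 of the 8, among 10004 named genes tested in all. Sult1e1, the estrogen sulfotransferase, had no matched probe, and no value is given for it.

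The livers came from adult male Sprague-Dawley rats of 78 to 86 days. In the AhR group the dams had been given agonists of the aryl hydrocarbon receptor (AhR) together, namely dioxins and furans (polychlorinated dibenzodioxins and dibenzofurans) with non-ortho PCBs, in a daily amount equal in toxicity to 1.8 ng of TCDD per kg. In the control group the dams had received corn oil alone. Dosing ran from gestation day 0 to postnatal day 20 and the pups of both groups stayed with their own mothers. Each group had 4 arrays, each of liver RNA pooled from 2 rats and labelled with Cy5, against a commercial universal rat reference RNA from 14 cell lines labelled with Cy3. Nothing used here tells whether pools shared a litter, so that p-values measure the spread between pools. The comparison asks what maternal exposure left in the adult liver, and values below are log2 ratios of Cy5 over Cy3 unless a signal is named. The median Cy5 signal per array was 159 to 232 units over a background of 71 to 76, and 10 of 10 hepatocyte markers, Alb among them, were bright enough to be tested. In whole liver, fewer cells of a type and less RNA per cell cannot be told apart.

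Glucuronosyltransferases sit in the endoplasmic reticulum and move glucuronic acid from UDP-glucuronic acid to phenols, bilirubin, steroids and drugs. Sulfotransferases work in the cytosol and move a sulfonate group from the donor PAPS to many of the same substrates. Both reactions usually inactivate the substrate and make it soluble enough to leave in bile or urine, although sulfation of some arylamines activates them to reactive products. Ugt1a6, which conjugates small planar phenols, is a classical target of the AhR in rat liver. Sulfotransferases of the Sult2a group, which conjugate hydroxysteroids such as dehydroepiandrosterone, and of the Sult1c group, which act on hydroxylated arylamines, are known in rats to differ between the sexes.

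The stretch before the start of Ugt1a6 is shown because it holds the letters of the AhR binding core, and the stretches before Sult2a1 and Sult2a6 because they are nearly alike although the ratios of these 2 genes lay far apart. The sequences are the 250 bases before the annotated start in RefSeq, build GRCr8. In Ugt1a6 (chr9:96194768-96195017, plus strand) capitals mark GCGTG. In Sult2a1 (chr1:84638948-84639197, minus strand) and Sult2a6 (chr1:84097809-84098058, minus strand) capitals mark the bases at which the pair differs.
Ugt1a6: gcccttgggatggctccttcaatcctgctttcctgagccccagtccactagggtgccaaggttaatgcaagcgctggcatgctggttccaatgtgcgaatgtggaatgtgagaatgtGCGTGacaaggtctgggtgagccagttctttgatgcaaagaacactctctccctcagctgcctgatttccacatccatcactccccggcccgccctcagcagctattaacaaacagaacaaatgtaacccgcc
Sult2a1: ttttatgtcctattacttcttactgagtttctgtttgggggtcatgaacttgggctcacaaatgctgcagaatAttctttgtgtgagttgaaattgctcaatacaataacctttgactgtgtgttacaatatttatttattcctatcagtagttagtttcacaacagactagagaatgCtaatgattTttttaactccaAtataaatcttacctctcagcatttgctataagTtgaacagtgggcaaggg
Sult2a6: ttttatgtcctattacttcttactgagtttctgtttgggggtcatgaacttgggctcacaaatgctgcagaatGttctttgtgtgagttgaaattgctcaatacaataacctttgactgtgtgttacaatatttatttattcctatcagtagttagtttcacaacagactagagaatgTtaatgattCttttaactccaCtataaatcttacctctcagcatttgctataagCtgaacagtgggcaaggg
GCGTG, searched on both strands, was found in 1 of the 8 members, in Ugt1a6 from base -133 to -129, and in 25.9% of 33469 promoter windows of this length. The Sult2a pair had 245 of 250 bases in common and differed at 5. A match of letters is a description and shows no binding.

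Between AhR and control livers none of the 7 measured genes passed the test, and the gene with the largest difference, Ugt2b, was also one of the most uneven between pools of the same group. Limma, fitted over 17859 probes, called 0 of them at an adjusted p of 0.05 (0%) and 0 of the 7 members. Before adjustment 288 probes (1.61%) were below 0.05, and 1 of the members, Ugt2b, was among them. That share of probes is smaller than the 0.05 expected where no probe differs, and the reason was not tested. The means of 5 of the 7 members were lower in AhR, where 52.3% of all probes were, and the median difference of the 7 was -0.25. For 0 of the 7 were the groups free of overlap, against 1.19% of all probes.

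**Figure D1:**
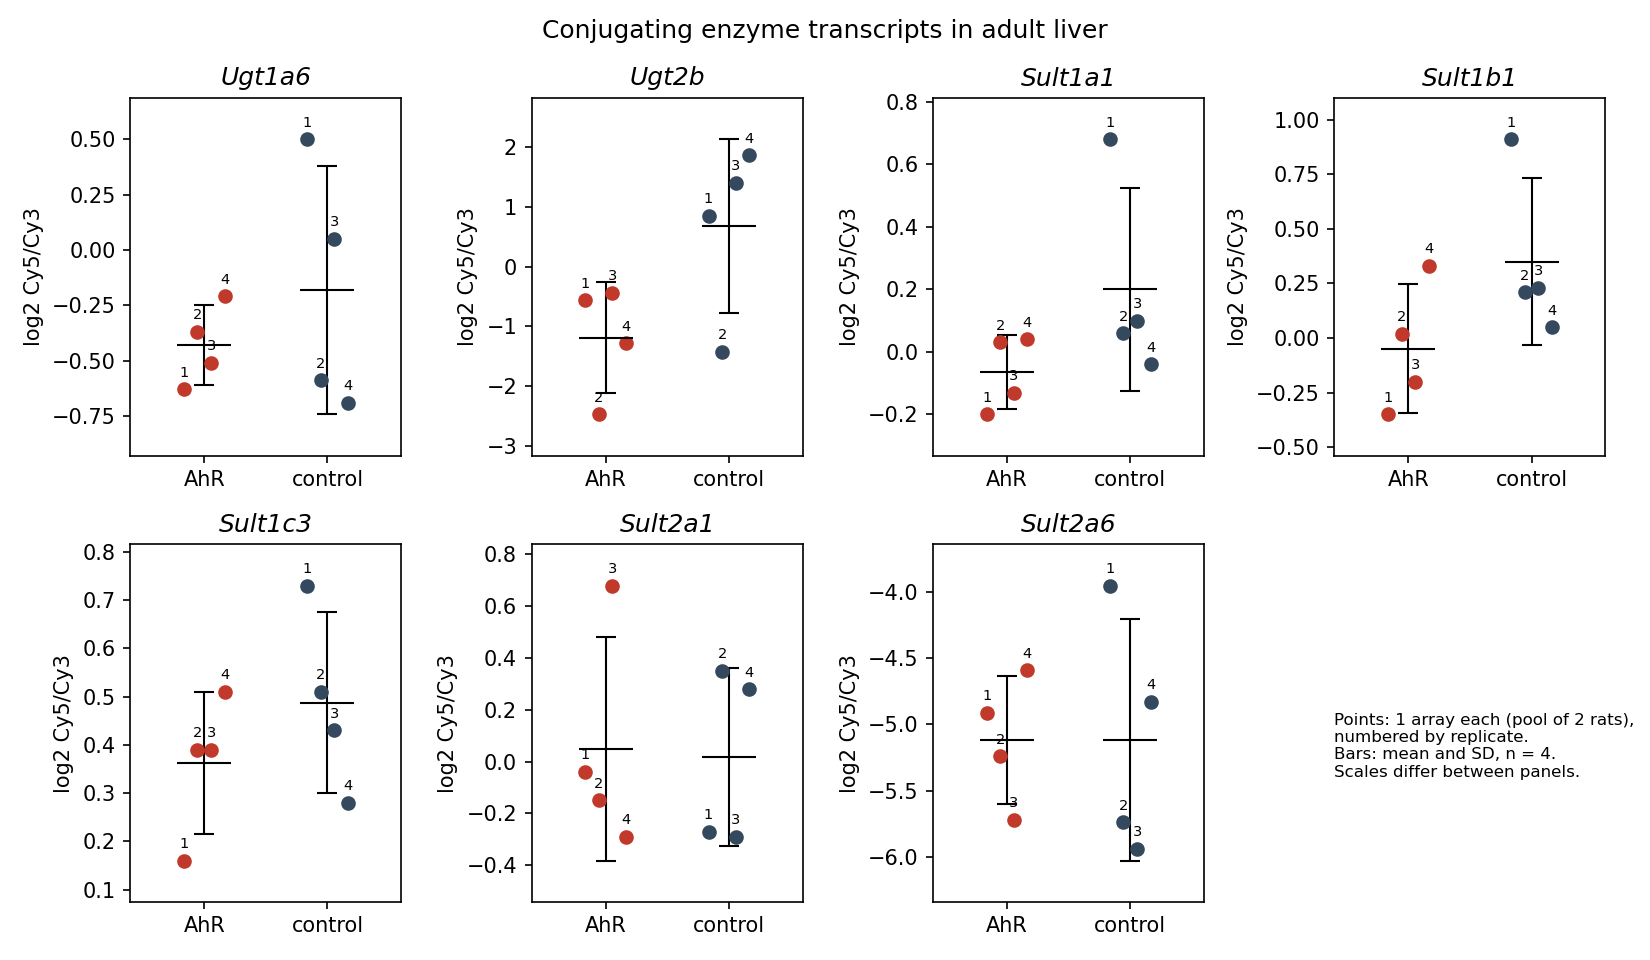
Log2 Cy5/Cy3 of the 7 measured genes in AhR livers (left, red) and control livers (right, dark blue), 1 point per array with its replicate number, bars giving mean and SD (n = 4). The groups overlap in every panel, and control replicate 1 is the highest array for Ugt1a6, Sult1a1, Sult1b1, Sult1c3 and Sult2a6.

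Ugt2b, listed in RefSeq under the older name Ugt2b2 and known in rats for the conjugation of androsterone, was lower in the AhR pools than in 3 of the 4 control pools. Its ratios were -0.56, -2.47, -0.44 and -1.28 in AhR replicates 1 to 4, against 0.85, -1.42, 1.40 and 1.86 in control replicates 1 to 4. Control replicate 2 lay within the AhR range, and the other 3 control arrays lay above all AhR arrays. Ugt2b averaged -1.19 ± 0.93 in AhR and 0.67 ± 1.46 in control (SD, n = 4 each). The difference was -1.86 (SE 0.65, 95% interval -3.31 to -0.41), which is 3.63-fold lower in AhR with an interval of 1.33-fold to 9.91-fold. Limma moves the spread of each probe toward that of all probes. For a gene as uneven as Ugt2b this made the SE smaller and the interval narrower than its own pools give, and lowered the unadjusted p. The difference did not pass (limma unadjusted p = 0.0165, adjusted p = 1.00, exact two-sided permutation p = 0.114, where 0.0286 is the smallest that 4 against 4 allows). In size it stood first among the 17859 probes, of which 9 (0.0504%) differed by 2-fold or more, and 7 of these (0.0392%) were lower in AhR. Both Ugt2b probes are among the 7, as is an unnamed probe whose ratios correlated with Ugt2b at 0.998 over the arrays, so that these shares partly count Ugt2b itself.

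The probe used for Ugt2b had 1 spot per array, and the second Ugt2b probe, with 2 spots, gave nearly the same picture. The second probe read -0.57, -2.19, -0.50 and -1.09 in AhR, against 0.87, -1.16, 1.06 and 1.44 in control, with a difference of -1.64. Over the 8 arrays the ratios of both probes correlated at 0.997, as a description. In spot brightness the Cy5 signal of the probe used was 24290, 11840, 26246 and 12578 units in AhR livers, against 57854, 12603, 74519 and 111255 units in control livers, a 9.40-fold range. The Cy3 signal of the reference RNA on the same spots was 21701, 28629, 23261 and 22941 units beside AhR, against 23306, 28060, 17816 and 14842 units beside control. The reference signal was lowest on control replicates 4 and 3, the arrays with the highest liver signal, and it spanned a 1.93-fold range. With Cy5 alone, normalized between arrays, the Ugt2b difference was -1.66. The part of the Cy3 signal in the ratios was not tested further.

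**Figure D2:**
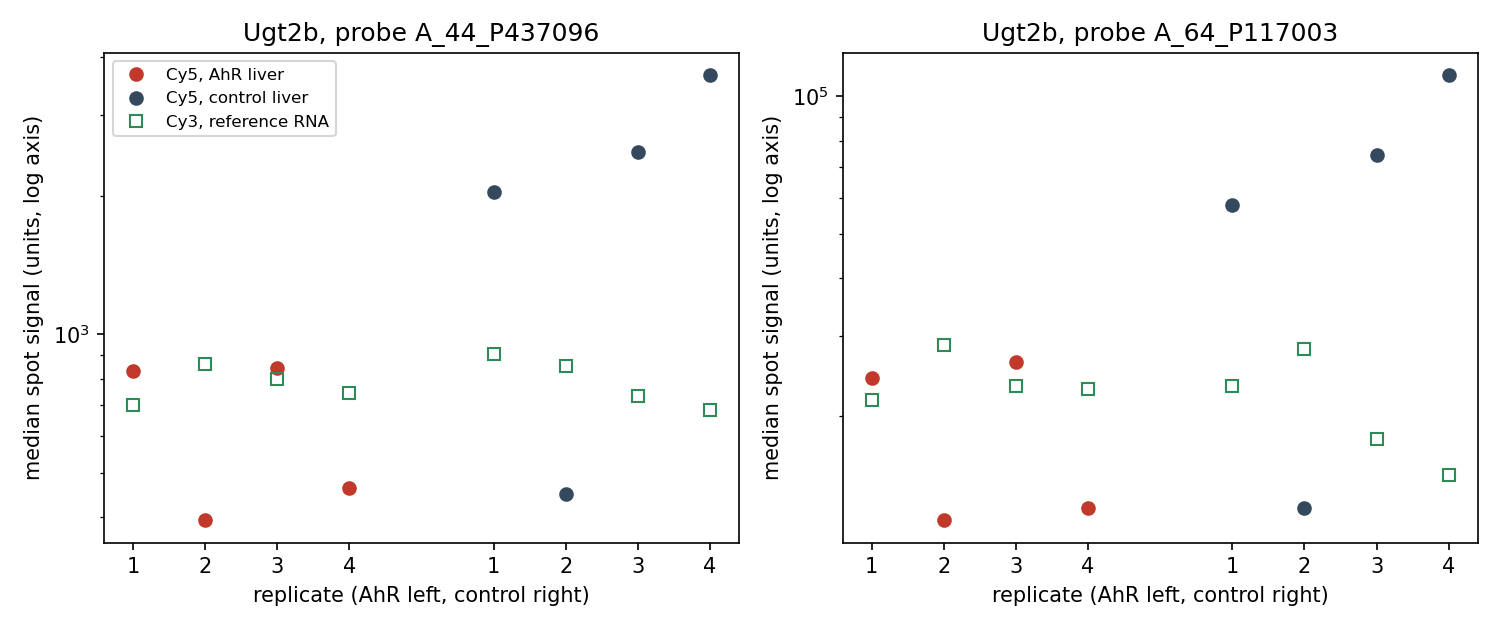
Median spot signal of both Ugt2b probes on a log axis, with AhR arrays on the left and control arrays on the right. Filled circles are Cy5 (liver), open squares Cy3 (reference RNA). In both panels Cy5 is high on control replicates 1, 3 and 4 and low on AhR replicates 2 and 4 and control replicate 2.

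By position on the slide, Ugt2b was lower in AhR in both rows of arrays. In row 1, which held AhR replicates 2 and 4 and control replicates 1 and 3, the difference was -3.00 without overlap. In row 2 it was -0.72 with overlap. Each row held 2 arrays of each group, too few for a lack of overlap to weigh much. The share of all probes without overlap in a row was not worked out. Over the hepatocyte marker list the mean ratio per array was -0.02 to 0.29 in AhR and -0.03 to 0.28 in control, all 10 of its genes measured. Markers of red cells, 5 of 5 measured, had means of -1.50 to -0.37 in AhR and -0.87 to 0.44 in control, with 5 of 5 lower in AhR. Stellate and fibroblast markers were higher in AhR in 6 of 6 genes (median 0.13), endothelial markers in 4 of 4 (0.14) and Kupffer cell and macrophage markers in 5 of 6 (0.12), and none of these genes was called by limma. The part of these lists in any result here was not tested.

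Ugt1a6, the AhR target of the set, had no higher mean in AhR livers. Its ratios were -0.63, -0.37, -0.51 and -0.21 in AhR, against 0.50, -0.59, 0.05 and -0.69 in control. The AhR values all lay inside the control range. Ugt1a6 averaged -0.43 ± 0.18 in AhR and -0.18 ± 0.56 in control (SD, n = 4 each), a difference of -0.25 (SE 0.23, 95% interval -0.77 to 0.27, limma adjusted p = 1.00). The value hung on 1 array: without control replicate 1 it was -0.02, and without control replicate 4 it was -0.42. By slide row it was -0.57 in row 1 and 0.07 in row 2, of opposite sign. A second Ugt1a6 probe gave -0.07, and its ratios correlated with those of the first at 0.385 over 8 arrays, so that the probes of this gene did not track each other closely. Genes of the Ugt1a locus share their last exons, and which of these transcripts each probe reads was not settled here.

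Sult1a1, which sulfates phenols, and Sult1b1, which sulfates thyroid hormones and catechols, had lower means in AhR, and in each the groups overlapped through 1 array. Sult1b1 read -0.35, 0.02, -0.20 and 0.33 in AhR, against 0.91, 0.21, 0.23 and 0.05 in control. AhR replicates 1 to 3 lay below all control arrays, and AhR replicate 4 lay above 3 of them. The difference was -0.40 (SE 0.20, 95% interval -0.83 to 0.04, limma unadjusted p = 0.0709, adjusted p = 1.00), and -0.21 without control replicate 1. A second Sult1b1 probe followed the first at 0.998 over the arrays and gave -0.36. By slide row Sult1b1 differed by -0.39 in row 1 with overlap and by -0.40 in row 2 without. Sult1a1 read -0.20, 0.03, -0.13 and 0.04 in AhR, against 0.68, 0.06, 0.10 and -0.04 in control. Control replicates 1 to 3 lay above all AhR arrays, by little except for control replicate 1, and control replicate 4 lay inside the AhR range. The difference was -0.26 (SE 0.15, 95% interval -0.60 to 0.07, limma adjusted p = 1.00), and -0.10 without control replicate 1. By slide row, with 2 arrays of each group, Sult1a1 differed by -0.35 in row 1 and -0.17 in row 2, without overlap in either. So few arrays separate easily, and for neither gene was the share of all probes without overlap in a row worked out.

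Sult1c3, the member of the Sult1c group, which has also been called Sult1c1, was the steadiest of the set. It read 0.16, 0.39, 0.39 and 0.51 in AhR, against 0.73, 0.51, 0.43 and 0.28 in control, all above 0 after normalization. Its spot signals before normalization were 40386 to 72425 units in liver and 21522 to 24863 units in the reference. The difference was -0.12 (SE 0.12, 95% interval -0.39 to 0.14, limma adjusted p = 1.00), -0.04 without control replicate 1 and -0.19 without control replicate 4.

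The Sult2a genes had mean differences near 0 between the groups. Sult2a1 read -0.04, -0.15, 0.68 and -0.29 in AhR, against -0.27, 0.35, -0.29 and 0.28 in control. AhR replicate 3 was the highest array, and the other AhR arrays lay inside the control range. The difference was 0.03 (SE 0.22, 95% interval -0.46 to 0.52, limma adjusted p = 1.00), and -0.18 without AhR replicate 3. Sult2a6 read -4.91, -5.24, -5.72 and -4.59 in AhR, against -3.95, -5.74, -5.94 and -4.83 in control. The control arrays held both the highest and the lowest value. Its means were -5.11 ± 0.48 in AhR and -5.11 ± 0.91 in control (SD, n = 4 each), with a 95% interval of the difference from -0.87 to 0.88, so that changes of up to 1.83-fold lie within the interval. Without control replicate 1 the Sult2a6 difference was 0.39, and without control replicate 3 it was -0.27.

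Against the reference RNA, Sult2a6 stood apart from the rest of the set. Before normalization its Cy5 signal in liver was 1755 to 6710 units, and its Cy3 signal in the reference was 66759 to 80452 units. By the mean normalized ratio Sult2a6 was 34.6-fold dimmer in liver. The near-twin promoter of Sult2a1 went with a mean ratio of 0.03 ± 0.36 (SD over 8 arrays). Its Cy5 signal was 27860 to 61188 units and its Cy3 signal 20465 to 25901 units. The probes of the Sult2a genes thus differed in signal in the reference channel as well as in the liver channel. Signals of different probes are not on a common scale of transcript amount, so the source of the gap was not settled. The other measured members had mean ratios between -0.30 and 0.42. No dyes were swapped, so ratios between the channels are open to dye bias, and genes of the Sult2a and Ugt2b families are close copies whose transcripts a probe may not tell apart. All 7 genes were well above background in both channels on 8 of 8 arrays and none was saturated.

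**Figure D3:**
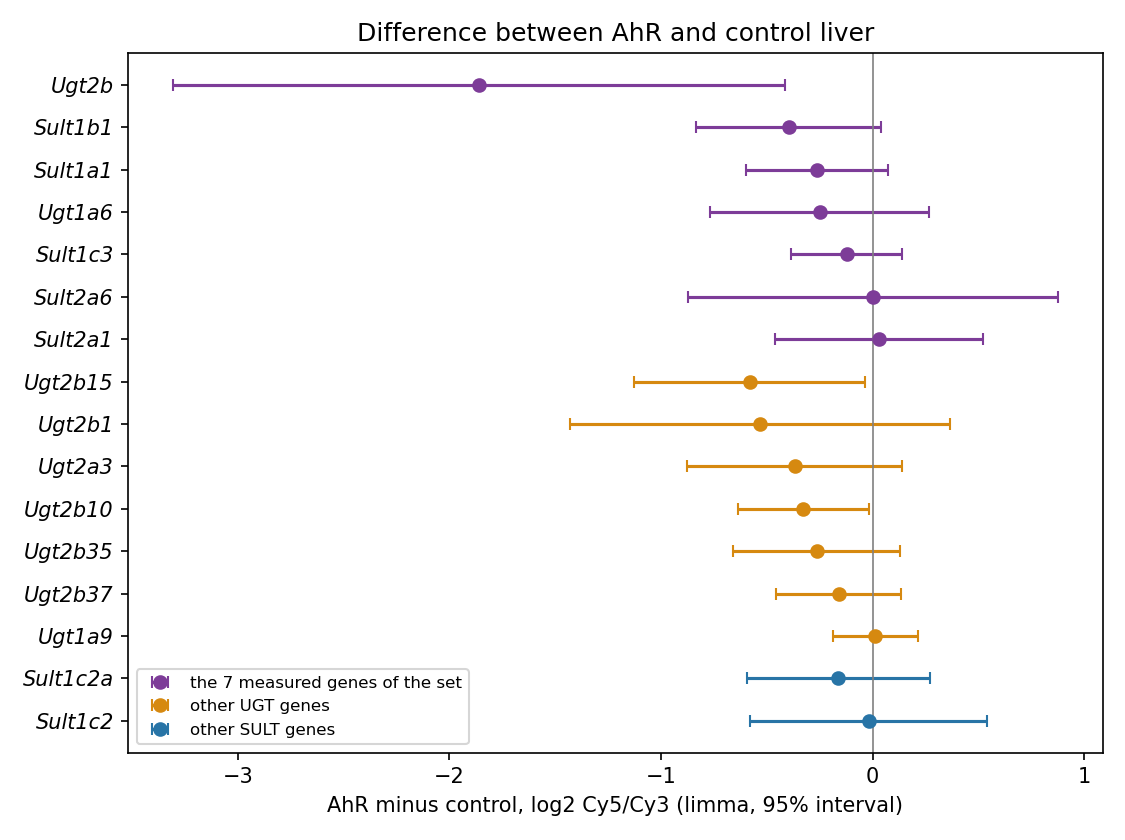
Difference AhR minus control in log2 Cy5/Cy3 with its 95% interval from limma, for the 7 measured genes (purple), other glucuronosyltransferase genes (orange) and other sulfotransferase genes (blue). Most intervals include 0. Those of Ugt2b, Ugt2b15 and Ugt2b10 do not, and none of the genes passed after adjustment. For these genes the spread that limma moves toward that of all probes made the intervals narrower than their own pools give.

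Of the wider conjugation pathway, 42 of 68 listed genes could be tested and 0 were called by limma, with 3 at an unadjusted p under 0.05. Their median difference was -0.07, with 29 lower and 13 higher, beside -0.01 over all probes. Among 7 other glucuronosyltransferase genes 6 had lower means in AhR. Ugt2b15, another steroid-conjugating enzyme gene, read 0.15, 0.01, 0.02 and 0.10 in AhR, against 0.64, -0.21, 0.93 and 1.24 in control. As with Ugt2b, control replicate 2 was the low array of the control group. Its difference was -0.58 (SE 0.25, limma unadjusted p = 0.0391, adjusted p = 1.00). Ugt2b10 differed by -0.33 (SE 0.14) and Ugt2a3 by -0.37 (SE 0.23). Taken with Ugt2b, a grouping made after the values were seen, the means of 7 of 7 Ugt2 genes were lower in AhR, with a median of -0.37. Over all probes 52.3% were lower. Ugt2b and Ugt2b15 correlated at 0.913 over the arrays, and probes may not tell Ugt2b copies apart, so these genes may not be separate readings. Within AhR, Ugt2b15 stayed between 0.01 and 0.15 while Ugt2b ran from -2.47 to -0.44. Which copies the probes read was not tested. Of 9 other sulfotransferase genes 7 had a matched probe and 2 of these, Sult1c2a and Sult1c2, were bright enough to test, at -0.16 and -0.02.

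Genes that supply the donors were mixed, with 5 higher and 3 lower of 8 tested. Slc26a1, a sulfate transporter gene, read 0.69, 0.33, 0.47 and 0.49 in AhR, against 0.28, 0.07, 0.26 and 0.32 in control. These groups did not overlap, which held for 1.19% of all probes. The difference was 0.26 (SE 0.10, limma unadjusted p = 0.0289, adjusted p = 1.00). Papss2, which makes PAPS, differed by 0.26 (SE 0.16) and Ugdh, which makes UDP-glucuronic acid, by -0.19 (SE 0.14). Genes of deconjugation, 6 of 6 tested, had a median of -0.05, with Sumf1 at 0.09, Arsa at -0.07 and Arsb at -0.06. Among 8 transporter genes of conjugates the median was -0.10, with the uptake genes Slco1b2 at -0.32 and Slc10a1 at -0.29 and the canalicular export gene Abcc2 at 0.24. Of 11 genes of receptors and regulators 8 were lower, with a median of -0.05, and Nfe2l2, Hnf4a and Stat5b differed by -0.18, 0.17 and -0.13.

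The spread between pools of the same group was wide for most of the set. Pooled over both groups, the SD of Ugt2b was 1.22 (log2), rank 3 among 10000 genes with a value on all arrays, after Dbp, an output gene of the circadian clock, at 1.32 and Nr0b2 at 1.28. The median gene had an SD of 0.17. The 10 hepatocyte markers had SDs of 0.21 to 0.61, so a spread above the median was not particular to this set. Sult2a6 had 0.73 (rank 55), Ugt1a6 0.42, Sult2a1 0.39, Sult1b1 0.34, Sult1a1 0.25 and Sult1c3 0.17. Sult2a6 varied 3.98-fold between its lowest and its highest array, both of the control group. Ugt2b varied 20.1-fold, from AhR replicate 2 (-2.47) to control replicate 4 (1.86), a range that includes the difference between the groups. With Cy5 alone, normalized between arrays, Ugt2b varied 13.5-fold. Within groups the Ugt2b ratios ran from -2.47 to -0.44 in AhR and from -1.42 to 1.86 in control.

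**Figure D4:**
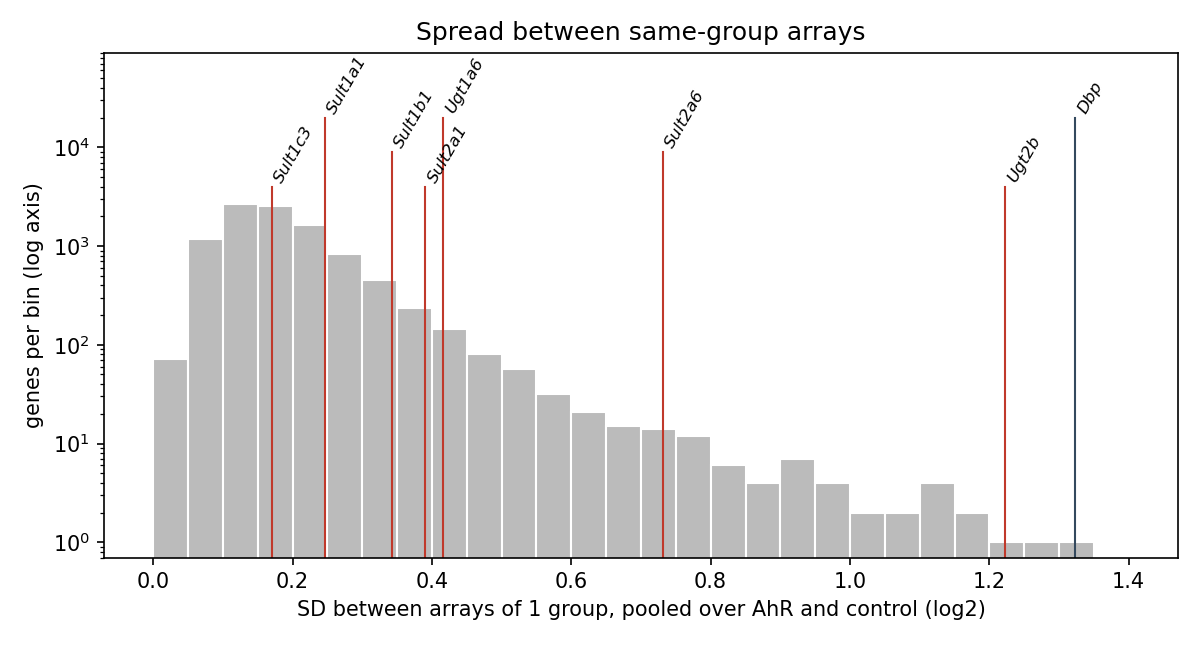
Number of genes (log axis) by the SD between arrays of the same group, pooled over AhR and control, in log2 units, for 10000 genes. Red lines mark the 7 measured genes and the dark line Dbp; Sult1c3 sits at the median of 0.17 and Ugt2b, at 1.22, near the right end.

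Correlations between members were highest among 4 genes other than Ugt2b and the Sult2a pair. Over 8 arrays, 28 correlations were computed, 21 between members and 7 with Dbp, and 4 passed an exact permutation test after Benjamini-Hochberg adjustment. All 4 of these pairs were among Ugt1a6, Sult1a1, Sult1b1 and Sult1c3. Sult1a1 and Sult1b1 had a Pearson r of 0.953 (exact permutation p = 0.000546, adjusted p = 0.0153) and a Spearman rho of 0.905 (exact p = 0.00456, adjusted p = 0.101). Without AhR replicate 1 and control replicate 1, the arrays farthest from the median of Sult1a1, r was 0.850 (exact p = 0.0389). For Sult1b1 with Sult1c3 r was 0.921 (rho 0.881), for Ugt1a6 with Sult1a1 0.887 (rho 0.762) and for Sult1a1 with Sult1c3 0.883 (rho 0.833), each at adjusted exact p = 0.0321. With the 2 farthest arrays left out these fell to 0.615, 0.499 and 0.544 (exact p = 0.194, 0.307 and 0.276), so that these relations rest on those arrays, control replicate 1 among them each time. Of the 28, 0 passed without control replicate 1, 0 without AhR replicate 1, 1 without AhR replicate 2, 1 without AhR replicate 4 and 0 with Cy5 alone. Taken as deviations from the group means, the 4 pairs in the order given had r of 0.935, 0.922, 0.889 and 0.866; each slide row held too few arrays for a value. Ugt2b had r between -0.17 and 0.28 with the other members and Dbp, and Sult2a1 with Sult2a6 had r of -0.447 (exact p = 0.271). The correlations of the members with Dbp were -0.364 to 0.209, the lowest adjusted exact p being 0.744.

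By the likeness of their ratios over the same 8 arrays, the genes nearest to the 3 most uneven members were taken from 10003 others, as a description. Each was picked for a high r among very many genes over few arrays, so these r values are no test of a relation. The genes most like Ugt2b were Ugt2b15 (r = 0.913), Acy3 (0.896) and Cenpm (0.890). Those most like Sult2a6 were Igfbp1 (0.960), a gene of the fasting and insulin response, mrpl9 (0.960) and Sh3bp4 (0.953). Igfbp1 read -0.96, -0.97, -2.01 and -0.21 in AhR, against 0.68, -1.82, -1.55 and -0.37 in control, high on control replicate 1 and low on AhR replicate 3 and control replicates 2 and 3, as Sult2a6 was. Those most like Ugt1a6 were Dhx57 (0.985), Slco1a4 (0.955), which encodes a hepatic uptake transporter, and Thnsl2 (0.950). The arrays share their RNA pools in all of these values.

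**Figure D5:**
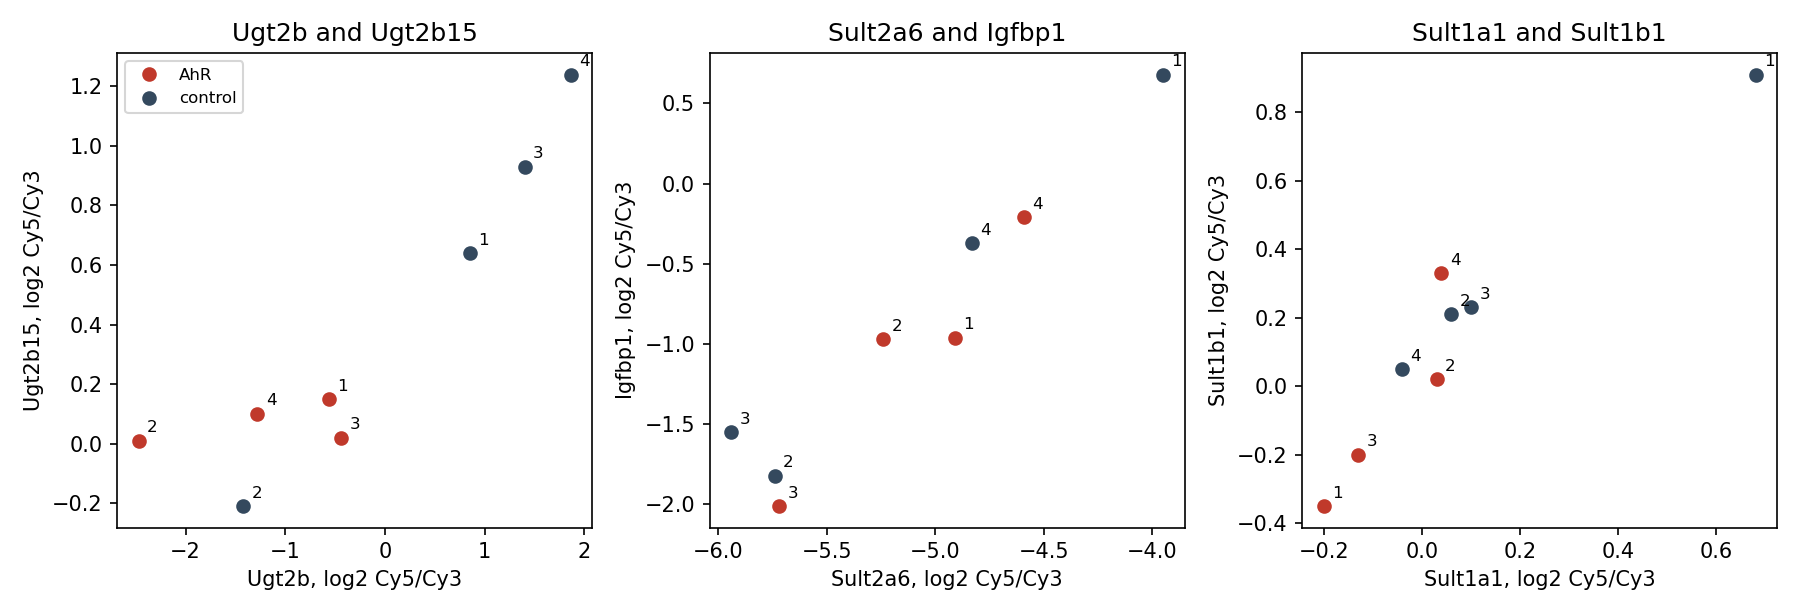
Log2 Cy5/Cy3 of gene pairs over the 8 arrays, AhR in red and control in dark blue, with replicate numbers. Ugt2b15 (r = 0.913 with Ugt2b) and Igfbp1 (r = 0.960 with Sult2a6) were picked as the genes of highest r among 10003. For Sult1a1 and Sult1b1 (r = 0.953) control replicate 1 lies far from the other arrays.

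On the chromosomes 3 of the 8 genes stand close together. Sult1e1, Sult1b1 and Ugt2b follow each other on chromosome 14 in the RefSeq table, with Sult1d1 as the protein-coding gene between the first pair and 3 protein-coding genes, Ugt2a1 and Ugt2a3 among them, between the second. Sult1b1 and Ugt2b, these neighbours, had an r of 0.249 over the arrays (exact permutation p = 0.568). Sult2a6 and Sult2a1 lie on chromosome 1 with 1 protein-coding gene between them.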

How the data were processed

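Liver RNA of 4 AhR and 4 control pools was measured on 8 two-colour Agilent arrays of 1 slide. The deposited intensity values are median spot and local background signals, and per the file headers the scanner software was Feature Extraction 10.7.3.1 from Agilent. The files' processed signals were background-subtracted and dye-normalized by that software, per the file headers. A second deposited table holds log2 values of Cy5 over Cy3, whose scale and dye correction are not given in the sources used here. Its columns correlated across probes at 0.990 to 0.994 with loess-normalized ratios without background subtraction, and its medians were 0.00569 to 0.0165.

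Background was corrected by normexp (offset 50) and loess was run on the ratios within each array (R 4.3.3, limma 3.58.1), without control and outlier spots. Probes with Cy5 well above background on at least 4 of 8 arrays were kept, 17859 of 30367. RefSeq accessions named 11656 of these. Probe and gene coordinates are not given, since the design's build predates GRCr8; only the promoter windows and gene order, from RefSeq, are on GRCr8. Groups were compared with limma (lmFit, eBayes, Benjamini-Hochberg over all kept probes). The eBayes step moves the spread of each probe toward that of all probes, so intervals of very uneven genes are narrower than their own pools give. The procedure was tested on simulated data with independent noise for each probe. That simulation held no variation shared between probes, so it does not cover such variation in these arrays. Even the most alike arrays had an SD of 0.147 (log2) between them, where duplicate spots gave 0.0903, so none was the same scan deposited again; a repeat hybridisation of 1 RNA was not tested for. The number of arrays limits the precision.

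The members, lists and tests were chosen with earlier results of these data known. The text names the members, Dbp, up to 3 genes of smallest p per list and the 3 genes most like each of the 3 most uneven members; genes beyond these were chosen after their values were seen. Alternatives covered background, normalization, channel, filter, probe choice, the value table, blocks and each array left out.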

Additional observations from a re-analysis of the deposited data

Results flagged for a closer look

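Among the 33 genes named in the text and checked within each group, 66 groups of 4 arrays, 2 had an array whose gap to its nearest neighbour took up an unusually large share of the group's range. Chance alone flags about 1 group in 20. Arsa, a lysosomal sulfatase gene, stood at 0.46 on control replicate 3, against -0.06 to -0.03 on the other control arrays. Dhx57, the gene most like Ugt1a6, stood at 0.01 on AhR replicate 4, against -0.11 to -0.09 on the other AhR arrays. None of the 7 conjugating enzyme genes was flagged in this way, Ugt2b included.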

How the results depend on the processing

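Across 11 other settings on all arrays and 8 with 1 array left out, 0 probes, 0 members and 0 pathway genes passed an adjusted p of 0.05 by limma, the lowest adjusted p over all probes being 0.214, without control replicate 4. Ugt2b kept its direction in all 19, between -1.86 and -1.66 on all arrays and between -2.56 (without control replicate 2) and -1.43 (without AhR replicate 2) with 1 left out; its limma adjusted p ran from 0.528 to 1.00. Ugt1a6, Sult1a1, Sult1b1 and Sult1c3 kept theirs in all 19 as well. Sult2a1 turned negative in 3 and Sult2a6 in 4 of the 8 fits with 1 array left out, the lowest being -0.18 and -0.27. The count of correlated pairs was 0 with Cy5 alone in place of 4, and 0 to 6 with 1 array left out. With the replicate number as a block, 0 probes passed and Ugt2b stayed at -1.86 (limma unadjusted p = 0.000273, adjusted p = 1.00). That unadjusted p depends on a spread that limma moved toward that of all probes, with only 4 pairs of arrays, so it carries little weight. Same-numbered arrays had correlations of 0.003, -0.062, 0.048 and -0.369 in their deviations, which show no likeness by number. They cannot tell whether same-numbered samples shared a processing step, and the block changed no call. The slide row as a block also called 0 probes.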
